A study of Mus musculus with 2 samples.

Results

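The mouse genome carries long rows of neighbouring genes for C2H2 zinc finger proteins, and 204 protein-coding genes of this kind are described here for the histone mark H3K36me3 in macrophages. They were chosen by name and position alone, with no measured value. Each has a symbol made of Zfp and a number, lies on chromosomes 1 to 19, and has another gene of that name pattern within 100 kb. Of 358 autosomal Zfp genes, 204 had such a neighbour and are called clustered, and the other 154 are called lone Zfp genes. The annotation held 20780 autosomal protein-coding genes in all.

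H3K36me3 was profiled by chromatin immunoprecipitation and sequencing in bone marrow-derived macrophages of the C57BL/6J mouse strain, which are cells grown from marrow in culture. The cells received no stimulus, and there was 1 group of 2 biological replicates, so conditions cannot be compared and no test over samples could be made. The starting amount was 10 ng of DNA a library, and the size range is listed as 350 to 480, for which no unit is given. The labels give 2 biosamples under 1 donor record, list sex and age as not collected, and do not say whether the replicates came from separate animals. Replicate 1 had 32098 deposited peaks and replicate 2 had 58505, on the mm10 assembly. Read depth is unknown, because the files hold peaks and no reads. Macrophage identity was checked on 10 marker genes. At least 20% of the body lay under peaks in 5 of them in replicate 1, against 8.06% of all autosomal coding genes. In replicate 2 it did so in 9, against 24.6% of all autosomal coding genes. Both replicates reached 20% in 5 of the 10 markers, and Mpeg1 had no peak. None of the 4 markers each of T cells, B cells, neutrophils and fibroblasts had a peak in either replicate.

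C2H2 zinc finger proteins bind DNA through a row of fingers, each a short fold held by a zinc ion between a pair of cysteines and a pair of histidines. Most clustered genes arose by tandem duplication, and many encode a KRAB domain near the start of the protein. The KRAB domain recruits the corepressor Trim28, which brings the H3K9 methyltransferase Setdb1 and HP1 proteins and is best known for silencing transposable elements. H3K36me3 is laid down by Setd2 travelling with elongating RNA polymerase II, so it lies over the bodies of transcribed genes and rises towards their 3′ ends. Zinc finger clusters are also known, in human cells, to carry H3K36me3 together with H3K9me3 over their 3′ exons.

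The part of these genes that the results turn on is the last exon, which usually holds the whole finger array. Of 1469 fingers with a standard linker in the last exons of Zfp genes, 1444 spanned 78 bases from the first cysteine codon to the end of the linker. A finger of this kind is shown for each of 8 genes, without the few bases between the linker and the next finger. The capitals mark the 15 bases that code for the conserved linker of 5 residues between neighbouring fingers. The sequences are RefSeq GRCm38.p6, read 5′ to 3′ on the coding strand at GENCODE coding positions.
Zfp869 finger 1 (chr8:69707301-69707378, minus strand, wholly under peaks in both replicates): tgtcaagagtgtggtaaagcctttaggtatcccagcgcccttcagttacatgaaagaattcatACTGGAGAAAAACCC
Zfp263 finger 2 (chr16:3749128-3749205, plus strand, wholly under peaks in both replicates): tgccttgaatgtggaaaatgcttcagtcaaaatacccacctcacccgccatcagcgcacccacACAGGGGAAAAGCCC
Zfp84 finger 1 (chr7:29776635-29776712, plus strand, wholly under peaks in both replicates): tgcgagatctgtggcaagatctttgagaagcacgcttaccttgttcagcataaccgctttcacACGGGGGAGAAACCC
Zfp87 finger 1 (chr13:67517934-67518011, minus strand, wholly under peaks in both replicates): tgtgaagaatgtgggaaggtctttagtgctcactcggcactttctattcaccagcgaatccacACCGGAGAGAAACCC
Zfp709 finger 2 (chr8:71889491-71889568, plus strand, wholly under peaks in both replicates): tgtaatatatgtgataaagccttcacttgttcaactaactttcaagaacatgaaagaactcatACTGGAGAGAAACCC
Zfp968 finger 1 (chr2:175382283-175382360, plus strand, no base under a peak in either replicate): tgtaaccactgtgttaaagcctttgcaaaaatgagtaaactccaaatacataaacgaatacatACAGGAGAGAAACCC
Zfp965 finger 1 (chr2:175479750-175479827, plus strand, no base under a peak in either replicate): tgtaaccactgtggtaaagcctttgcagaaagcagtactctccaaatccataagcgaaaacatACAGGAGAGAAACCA
Zfp90 finger 2 (chr8:106424410-106424487, plus strand, a lone gene, wholly under peaks in both replicates): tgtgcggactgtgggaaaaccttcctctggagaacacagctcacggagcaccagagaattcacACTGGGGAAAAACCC

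The fingers of the neighbours Zfp968 and Zfp965 on chromosome 2, from a cluster without any peak, were the most alike of the 28 pairs, with 68 of 78 bases the same. Zfp869 and Zfp709, which lie in different clusters of chromosome 8, shared 56 of 78 bases. The fewest shared bases were 42, in 4 pairs, among them Zfp263 with Zfp709. In the linker, between 11 and 14 of 15 bases were the same in every pair. Only fingers followed by the same linker residues were eligible for printing, so this closeness was set by the choice. A longer stretch shows how fingers, linkers and the bases between them repeat: the first 300 bases of the finger array of Zfp709, which lay wholly under peaks in both replicates and contained 2 whole standard linkers, in capitals.
Zfp709 array start (chr8:71889407-71889706, plus strand): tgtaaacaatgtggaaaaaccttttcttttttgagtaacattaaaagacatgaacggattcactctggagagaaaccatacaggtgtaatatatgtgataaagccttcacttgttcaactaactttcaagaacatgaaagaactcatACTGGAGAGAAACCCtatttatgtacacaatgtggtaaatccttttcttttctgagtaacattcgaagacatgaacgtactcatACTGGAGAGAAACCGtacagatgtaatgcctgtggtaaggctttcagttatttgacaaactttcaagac

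Body coverage is the percent of the bases between a gene's annotated start and end that lie under deposited peaks, and a gene counted as marked where both replicates reached 20%. Of the 204 clustered genes, 30 were marked (14.7%), against 18 of 154 lone Zfp genes (11.7%), and the background over all autosomal coding genes was 8.03%. A cluster neighbour was therefore not accompanied by a clearly higher share marked among Zfp genes, and the sign of that 3.02 point difference changed under other settings, to -2.86 points on replicate 2 alone. In replicate 1, 30 clustered and 18 lone genes reached 20%, with a background of 8.06%. In replicate 2, 71 clustered and 58 lone genes did so, with a background of 24.6%. Peaks were undetected in both replicates over 70 clustered genes (34.3%) and 57 lone genes (37.0%), against 59.8% of all coding genes. The Zfp genes of both kinds thus had a peak more often than coding genes at large, while few of them had a peak over much of the body. Since peaks were called on whole cultures, a body marked weakly in all cells and one marked in few cells cannot be told apart.

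Typical coverage of the clustered genes was low. Median body coverage was 0.368% in replicate 1 and 8.90% in replicate 2 over clustered genes, 1.15% and 9.91% over lone Zfp genes, and 0% in both replicates over all coding genes. The mean over clustered genes was 8.61% in replicate 1 and 17.3% in replicate 2, against 7.29% and 18.5% over lone genes. Values ran from 0 to 96.2% in replicate 1 and from 0 to 100% in replicate 2 among clustered genes. The members just inside the 20% limit were Zfp426 with 20.7% in replicate 1 and Zfp871 with 22.6%. Just outside lay Zfp54 with 19.1% and Zfp623 with 18.6%, again in replicate 1, the lower of the replicates for these genes.

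**Figure D1:**
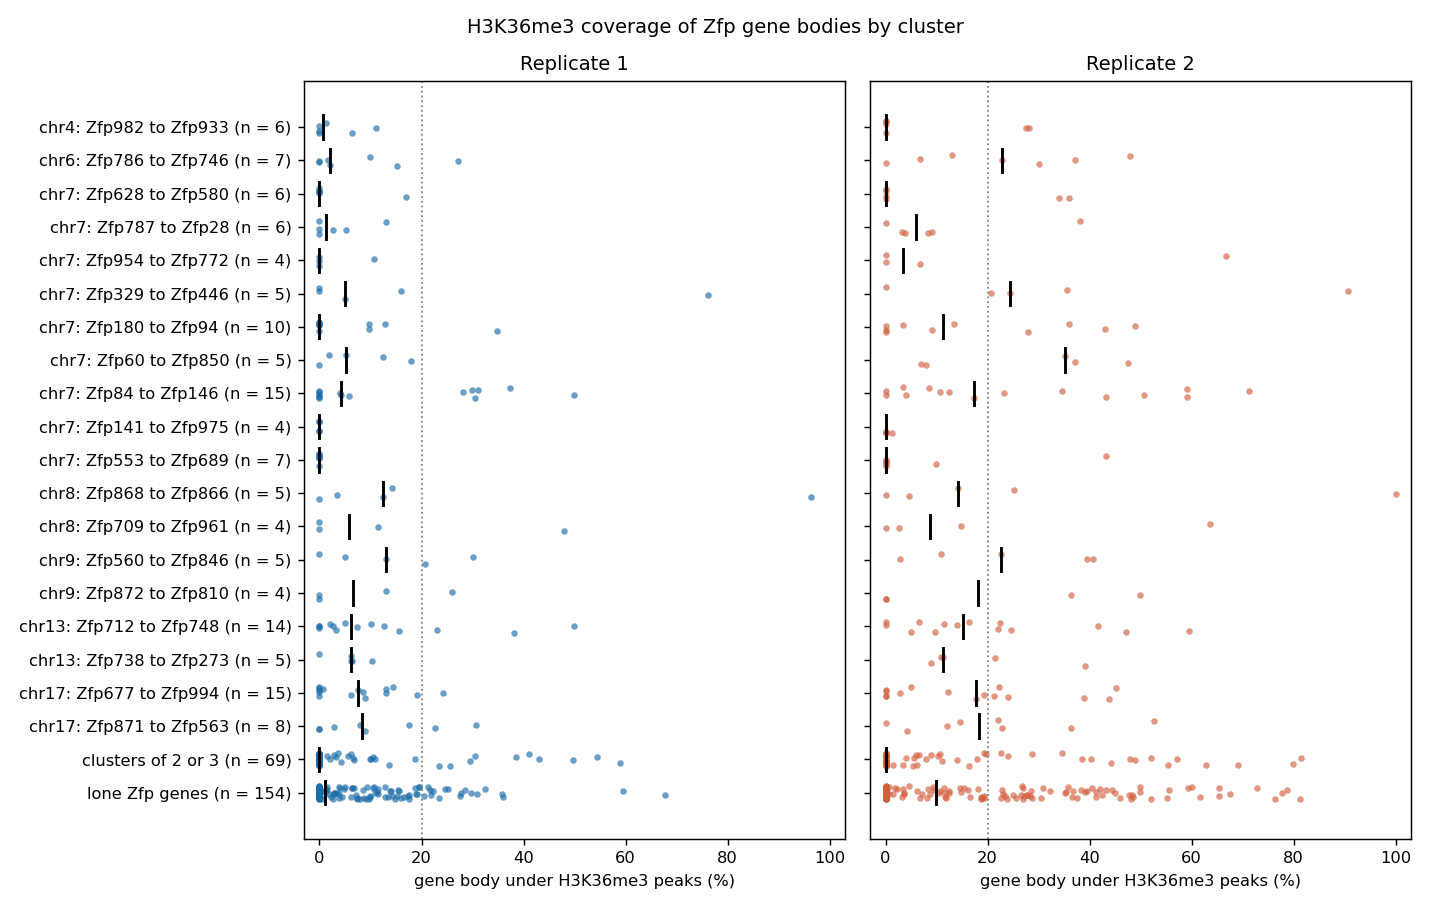
Percent of each Zfp gene body under H3K36me3 peaks, in replicate 1 (left) and replicate 2 (right), by cluster of 4 or more genes in chromosome order, with smaller clusters and lone genes below. Each point is 1 gene, black bars are medians and the dotted line is 20%. Most rows hold many genes at or near 0 and a few far to the right, such as Zfp869 at 96.2% and 100% among the chromosome 8 genes.

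The highest coverage among clustered genes was at Zfp869, on chromosome 8 from 69706332 to 69710724 on the minus strand. Its 4.39 kb body was covered 96.2% in replicate 1 and 100% in replicate 2, so the mark ran over nearly the whole gene. Zfp110, which encodes a KRAB protein also known as a partner of the p75 neurotrophin receptor, had 76.2% and 90.7% of its 15.8 kb on chromosome 7 from 12834761 to 12850577. Zfp646, with 27 fingers the longest row among clustered genes, had 58.8% and 79.8%. Zfp397 on chromosome 18 had 49.7% and 81.5%, Zfp263 on chromosome 16 had 54.5% and 69.1%, and Zfp84 on chromosome 7 had 49.96% and 71.3%. The next were Zfp709, with 48.0% and 63.5%, and Zfp87, with 49.9% and 59.6%. These 8 genes lay in 8 different clusters, and in each the coverage was higher in replicate 2. Among lone genes the highest were Zfp68 with 67.7% and 76.4%, Zfp90 with 59.5% and 72.8%, Zfp335, a regulator needed for T cell maturation, with 32.5% and 81.2%, and Zfp821 with 28.6% and 78.6%. No peak was found at 57 lone genes, of which Zfp184, Zfp296 and Zfp352 come first by symbol. The highest value among clustered genes lay above the highest among lone genes in both replicates.

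The strongest single peaks of the clustered genes were among the strongest of their lists. The authors' enrichment, a ratio over the background of their caller, was 6.64 at Zfp263 in replicate 1 and 10.6 in replicate 2, where the peak ran over 2920 and 6245 bases. At Zfp110 it was 5.96 and 10.2, with peaks of 7218 and 10810 bases. The 5 clustered genes highest by enrichment-weighted density, the deposited enrichment summed over covered bases and divided by gene length, were Zfp869 (a mean of 6.86 over the replicates), Zfp110 (6.16), Zfp263 (5.37), Zfp84 (3.86) and Zfp646 (3.85). Across all clustered genes, peaks touching the last exon had a median length of 1179 bases in replicate 1 and 1482.5 in replicate 2, against 748 and 839 bases for peaks elsewhere in the body. Their median enrichment was 3.50 in replicate 1 and 4.17 in replicate 2, against 3.25 and 3.79 elsewhere. By these medians, the peaks touching the last exon were longer and stronger than the others. A longer peak is more likely to touch any given exon, so the sorting itself favours length. In lone genes the median lengths were 982 and 1513 bases for peaks touching the last exon, against 702 and 924 elsewhere. Their median enrichment was 3.25 and 4.51, against 3.24 and 3.82.

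By share of bases, coverage of the clustered genes was concentrated in the last exon, as was that of lone Zfp genes and of coding genes at large. Here the last exon is that of the transcript with the longest coding sequence. It made up 15.1% of the body bases of clustered genes, but held 43.6% of their covered bases in replicate 1 and 35.3% in replicate 2. In lone Zfp genes the last exon was 6.06% of the bases and held 23.3% and 20.8% of those covered, and over all coding genes it was 3.39% and held 7.97% and 7.69%. In proportion to its share of the bases, the excess was largest in lone genes in both replicates. In replicate 2 that of clustered genes was near that of all coding genes. Mean last exon coverage was 20.9% in replicate 1 and 35.2% in replicate 2 over clustered genes, against 6.12% and 13.6% over the rest of the same bodies. The last exon was covered more than the rest in 79 clustered genes in replicate 1 and 107 in replicate 2, and less in 23 and 24. The background of genes covered more in the last exon was 13.2% in replicate 1 and 25.4% in replicate 2. Over all coding genes, 2729 were covered more there and 3551 less in replicate 1, and 5262 more and 2933 less in replicate 2. Lone genes had mean last exon coverage of 14.7% and 37.2%, with 5.98% and 14.7% over the rest. In them the last exon was covered more than the rest in 46 genes in replicate 1 and 80 in replicate 2, and less in 34 and 16. The last exon thus had the higher mean in both kinds of gene, and the lone genes were more evenly split in replicate 1. The difference between the kinds was not tested.

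**Figure D2:**
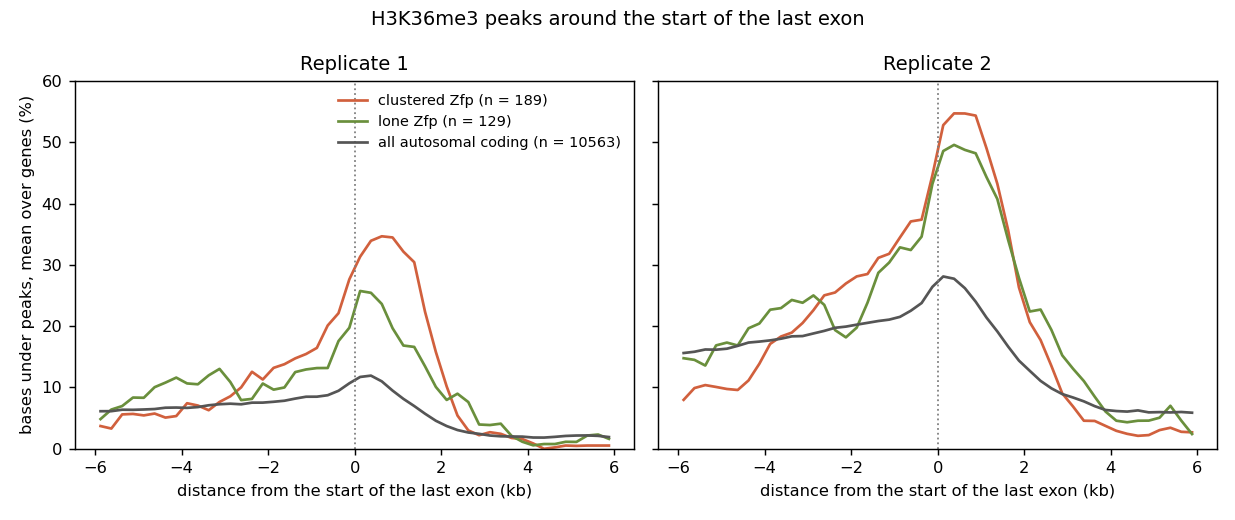
Mean percent of bases under H3K36me3 peaks in bins of 250 bases, by distance in kb from the start of the last exon, read in the direction of transcription, for 189 clustered Zfp genes, 129 lone Zfp genes and 10563 autosomal coding genes with more than 1 exon and a last exon of at least 1 kb. The clustered genes rise to 34.7% in replicate 1 and 54.7% in replicate 2 within the first kb of the exon and lie under 5% from 3250 bases inside it onwards.

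Centred on the start of the last exon, coverage of the clustered genes peaked inside the exon. In the bin 3 kb upstream, 8.56% of bases were under peaks in replicate 1 and 22.6% in replicate 2. In the bin that starts 500 bases inside the exon, the values were 34.7% and 54.7%. They dropped to 10.2% and 20.7% in the bin 2 kb inside. The highest bin of the lone genes had 25.7% in replicate 1 and 49.6% in replicate 2, and that of all coding genes 11.9% and 28.1%. Along the whole body cut into 10 equal bins, clustered genes of at least 5 kb rose from 0.235% in the first bin to 20.5% in the ninth in replicate 1, and to 35.0% in replicate 2. The tenth bin was lower, with 12.9% and 22.4%. The other groups had the same shape. Lone genes had 16.6% and 32.5% in the ninth bin and 8.75% and 25.9% in the tenth. All coding genes had 8.30% and 21.1% in the ninth and 7.25% and 19.7% in the tenth.

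A last exon counted as marked where both replicates covered 50% of it. That held for 40 clustered genes (19.6%), against 22 lone genes (14.3%) and a background of 5.93%. In replicate 1 alone, 41 clustered and 22 lone genes reached 50%, with a background of 6.53%, and in replicate 2 alone 70 and 60 did, with a background of 20.3%. Any base of the last exon was under a peak in 87 clustered and 53 lone genes in replicate 1 (background 15.4%) and in 124 and 84 in replicate 2 (background 30.2%). So the last exons of Zfp genes stood above the background in both replicates. In 24 of the 40 the body was marked too, and in 16 the last exon alone reached its limit. The 5 clustered genes with the highest last exon coverage were Zfp263, Zfp472 and Zfp869, each covered 100% in both replicates, Zfp146 with 99.1% and 100%, and Zfp382 with 95.3% and 100%. Zfp472 on chromosome 17, from 32965814 to 32979233, shows the contrast within a gene: its last exon was wholly covered while the rest of its body had 2.51% in replicate 1 and 7.80% in replicate 2. Body coverage of Zfp472 was 17.6% and 22.1%, so it missed the call on its body. The nearest members at the limit, by the lower replicate, were Zfp260 with 51.4% inside and Zfp12 with 49.8% outside. These 2 genes, and those next to the 20% limit on the body, are named for their place at a limit and were picked after their values were seen.

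**Figure D3:**
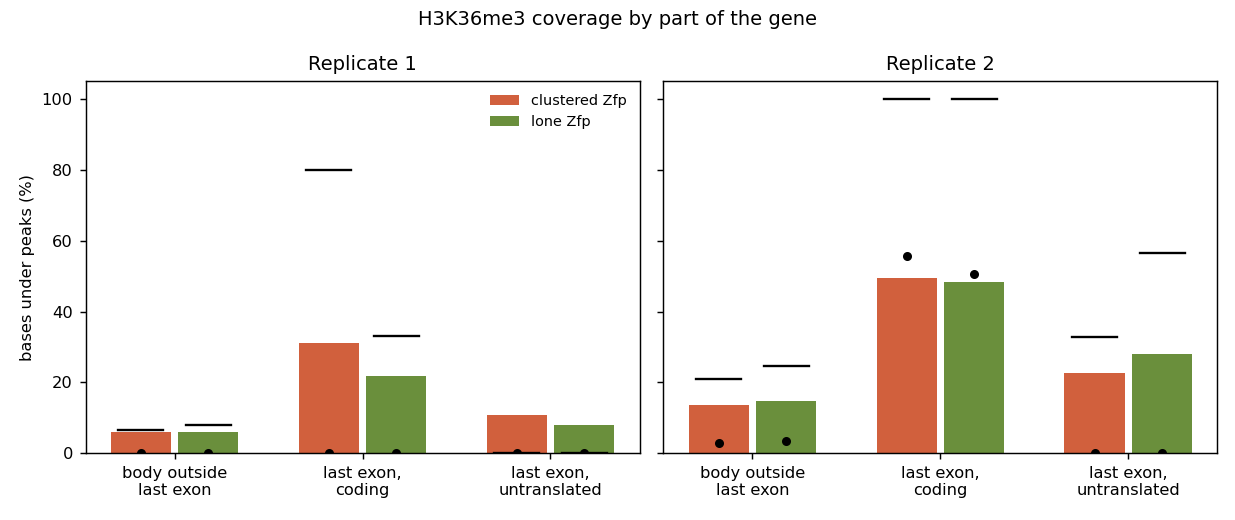
Percent of bases under H3K36me3 peaks in the body outside the last exon, in the coding part of the last exon and in its untranslated part, for clustered and lone Zfp genes in each replicate. Bars are means over genes, dots are medians and black lines are upper quartiles. The coding part of the last exon has the highest mean, 31.2% in replicate 1 and 49.4% in replicate 2 for clustered genes.

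Within the last exon, peaks lay over the coding part more than over the untranslated part. Mean coverage of the coding part was 31.2% in replicate 1 and 49.4% in replicate 2 in clustered genes, and that of the untranslated part 10.8% and 22.7%. Among 200 clustered genes with both parts, the coding part was covered more in 77 in replicate 1 and 97 in replicate 2, and less in 6 and 9. The background for the coding part being covered more was 8.83% and 16.9%. At least 50% of the coding part was covered in both replicates in 61 clustered genes (30.5%), against 32 lone genes (21.9%) and a background of 9.10%. The same was true of the untranslated part in 19 clustered and 9 lone genes, with a background of 5.50%. Zfp26, on chromosome 9, had its coding part covered 100% in both replicates and its untranslated part covered 1.37% and 6.48%. Zfp948, chosen after its values were seen, had 87.4% and 87.9% of the coding part covered and no base of the untranslated part in either replicate. By contrast, both parts of Zfp869 and Zfp263 lay wholly under peaks.

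A long coding last exon is rare outside this family, so the genes were also set beside others that share it. Among genes whose last exon is at least 1 kb, coding or not, 38 of 190 clustered and 18 of 132 lone genes (13.6%) had it marked, with a background of 4.91%. With at least 1 kb of coding sequence in the last exon, 33 of 163 clustered genes had a marked last exon (20.2%), as had 13 of 80 lone genes (16.2%). Of 1403 other coding genes with such an exon, 50 did, a background of 3.56%. Leaving out genes of 1 exon left 1042 others, of which 49 were marked there (4.70%). Mean last exon coverage was 22.3% in replicate 1 and 38.3% in replicate 2 over the 163 clustered genes, against 18.8% and 35.9% over the 80 lone genes and 6.92% and 18.1% over the 1042 others. The clustered and lone Zfp genes were thus closer to each other in these shares and means than to other genes with such an exon.

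The 204 genes formed 49 clusters on 13 chromosomes, where a cluster is a chain of Zfp genes with gaps of at most 100 kb. Of these, 21 held 2 genes, 9 held 3 and 19 held 4 or more, and the largest held 15. At least 1 marked gene was present in 19 clusters, and 5 clusters had 2 or more. No peak touched any member of 9 clusters, which together held 20 genes. Of 155 neighbouring pairs within clusters, both genes were marked in 7, 1 gene in 29 and neither in 119. Clusters of 10 or more genes had 11 of 54 members marked (20.4%) and 11 without a peak (20.4%). Clusters of 4 to 9 had 9 of 81 marked (11.1%), and clusters of 2 or 3 had 10 of 69 marked (14.5%) and 34 without a peak (49.3%). Of all autosomal coding genes, 8.03% were marked and 59.8% had no peak.

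The largest number of marked genes lay in a cluster on chromosome 7, from 29768552 to 30169750, which holds 15 genes from Zfp84 to Zfp146. Body coverage was at least 20% in both replicates in 6 of them, with a cluster median of 4.23% in replicate 1 and 17.3% in replicate 2. The marked genes were Zfp84, Zfp790, Zfp27, Zfp260, Zfp382 and Zfp146, between 28.0% and 49.96% in replicate 1 and between 34.7% and 71.3% in replicate 2. Among them stood Zfp30, next to Zfp84, and Zfp566, neither with a peak. Zfp82, named here after its values were seen, had no peak in replicate 1, while in replicate 2 its last exon was covered 90.6% and its body 10.7%. Zfp568, a KRAB gene known to repress a placental promoter of Igf2 in the mouse embryo, had 4.20% and 12.5% of its body covered but 67.2% and 100% of the coding part of its last exon. Last exons were at 50% or more in 6 of the 15 genes in replicate 1 and in 11 in replicate 2. The remaining 7 of the 15 genes had a peak and were not marked.

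The cluster of equal size on chromosome 17, from 21383748 to 22225616, runs from Zfp677 to Zfp994. Its only marked body was Zfp51, with 24.2% in replicate 1 and 43.8% in replicate 2, yet 5 of its last exons were marked. Those were the last exons of Zfp51, Zfp54, Zfp52, Zfp948 and Zfp942, of which Zfp52 had 81.9% and 100%. Zfp229, Zfp820, Zfp995 and Zfp947 had no peak. In the cluster of 14 genes on chromosome 13, from Zfp712 to Zfp748, the 3 marked bodies were the neighbours Zfp58, Zfp87 and Zfp748 at 1 end. Zfp58 had 38.1% and 47.1% and Zfp748 had 23.0% and 41.7%, while Zfp457 and Zfp459 had no peak. The 10 genes from Zfp180 to Zfp94 on chromosome 7 had 1 marked body, that of Zfp180 with 34.9% and 48.8%, and 3 without a peak, among them Zfp112.

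Most clusters of 4 to 9 genes had 1 marked gene or none. On chromosome 9, Zfp26 had 30.1% in replicate 1 and 40.7% in replicate 2 and its neighbour Zfp426 was marked too, while Zfp560, the lowest of those 5 genes, had 0 and 2.89%. In a second chromosome 9 cluster Zfp810 had 26.0% and 49.9% and Zfp599 had no peak. Zfp809 of that cluster is known to recruit Trim28 to the primer binding site of retroviruses in mouse embryonic cells. It had 12.96% and 36.3% of its body covered and no base of its last exon. The finger array of Zfp809 lies outside that exon and was wholly under peaks in both replicates. Zfp871 on chromosome 17 had 22.6% and 52.7%, against no peak at its neighbour Zfp811. Zfp746, also called PARIS, a repressor of the coactivator gene Ppargc1a, had 27.1% and 47.8% on chromosome 6, and Zfp786 in the same cluster had none. Around Zfp869, the gene Zfp964 had no peak, as had Zfp882 near Zfp709 and Zfp446 near Zfp110.

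In the other clusters of this size no gene was marked. The highest members were Zfp933 on chromosome 4 with 11.04% in replicate 1 and 28.1% in replicate 2, Zfp85 on chromosome 13 with 6.11% and 39.2%, and, on chromosome 7, Zfp865 with 16.98% and 35.9%, Zfp28 with 13.002% and 38.2%, Zfp626 with 12.5% and 47.5%, Zfp954 with 10.6% and 66.8%, Zfp553 with 0 and 43.2% and Zfp141 with 0 and 1.25%. All but Zfp141 passed 20% in replicate 2 only. Of their lowest members, Zfp534, Zfp524, Zfp667, Zfp772, Zfp688 and Zfp975 had no peak, Zfp974 had 0 and 7.91%, and Zfp493 had 0 and 8.83%. Chromosome 4 as a whole had 13 clustered genes in 4 clusters, none marked and 9 without a peak. Chromosome 2 had 11, of which 1 was marked and 9 had no peak. Repeated sequence in genes of both chromosomes is given further on. On chromosome 7, with 71 clustered genes in 13 clusters, 11 were marked.

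Only 1 cluster had all its genes marked, that of Zfp397, Zfp35 and Zfp24 within 66.1 kb on chromosome 18. Zfp397 had 49.7% of its body covered in replicate 1 and 81.5% in replicate 2, Zfp35 had 25.5% and 40.3%, and Zfp24 had 43.0% and 49.0%. Their coding last exons were covered between 97.8% and 100% in both replicates. The pair just inside the neighbour rule was Zfp932 and Zfp605 on chromosome 5, with a gap of 99.68 kb. Zfp932 had 0 and 10.6% of its body covered, and Zfp605 had 10.6% and 22.6% with a marked last exon. Just outside were Zfp936 and Zfp715 on chromosome 7, with a gap of 104.087 kb, where Zfp936 had no peak and Zfp715 had 17.5% and 26.7%.

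Gene length moved with the call. Among clustered genes of 10 to 20 kb, 17 of 86 were marked (19.8%), against 15 of 48 lone genes (31.2%) and 13.6% of all coding genes of that length. Under 10 kb, 5 of 40 clustered genes were marked (12.5%), against 1 of 27 lone genes (3.70%) and 4.76% of all coding genes. Between 20 and 50 kb, 8 of 74 clustered genes (10.8%) and 2 of 46 lone genes (4.35%) were marked, and 12.5% of all coding genes. The order of clustered and lone genes thus differed between length classes. No clustered gene of 50 kb or more was marked, of 4, and no lone gene, of 33, against 3.99% of all coding genes of that length.

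The finger array was counted in the translated coding sequence, as spans matching the C2H2 pattern. A finger was found in 202 of 204 clustered genes and in 144 of 154 lone genes, since the name pattern also takes genes of other kinds, such as the lone Zfp36, whose protein tristetraprolin binds RNA. Clustered genes had a median of 11 fingers and lone genes of 9. The array lay wholly within the last exon in 196 clustered genes, against 79 lone genes. It was covered 50% or more in both replicates in 63 clustered and 32 lone genes, and wholly in 33 and 12. Among arrays wholly within the last exon, 61 of 196 clustered and 21 of 79 lone ones were covered 50% or more in both. Arrays were not measured over all coding genes. The nearest background is the coding part of the last exon, covered 50% or more in both replicates in 9.10%. No base of the array was under a peak in either replicate in 81 clustered and 62 lone genes. Of 1039 fingers with the standard linker in the last exons of 175 clustered genes, 356 lay wholly under peaks in replicate 1, 521 in replicate 2 and 340 in both. Of 430 such fingers in lone genes, 143 did so in replicate 1 and 226 in replicate 2, which are similar shares. The array of Zfp709 lay wholly under peaks although only 31.4% and 51.0% of its 6.81 kb last exon did.

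The number of fingers and the KRAB pattern were set beside the marking as descriptions. Over all autosomal coding genes the background was 8.03% marked and 59.8% without a peak. With 15 or more fingers, 11 of 44 clustered genes were marked and 5 had no peak, against none of 28 lone genes marked and 10 without a peak. With 10 to 14 fingers, 11 of 95 clustered genes were marked (11.6%), with 5 to 9, 6 of 49 (12.2%), and with 4 or fewer, 2 of 16 (12.5%). Lone genes with 10 to 14 fingers had 6 of 37 marked (16.2%), so the order by finger number was not the same in both kinds. A short KRAB pattern was found in 136 clustered genes, of which 19 were marked (13.97%), and not found in 68, of which 11 were (16.2%). Clustered genes with a GC content under 45% had 21 of 136 marked (15.4%), and those at or above it 9 of 68 (13.2%). The array was covered 50% or more in both replicates in 52 of the 136 genes and 11 of the 68, and no peak was found in 41 and 29. The shares marked thus lay close together for both properties, while coverage of the array differed more between the GC classes.

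**Figure D4:**
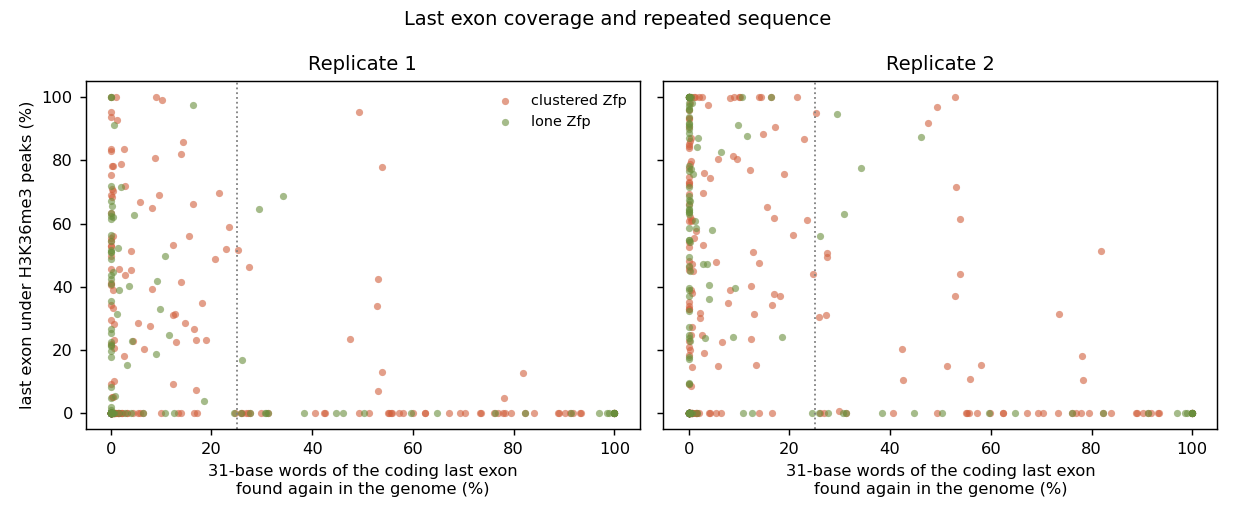
Last exon coverage by H3K36me3 peaks in each replicate against the percent of 31-base words of the coding last exon that occur again in the genome, 1 point for each clustered or lone Zfp gene. The dotted line is 25%. To its right most genes are at 0, and 3 clustered genes have a marked last exon.

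Coverage of clustered genes differed between classes of sequence shared with other places in the genome, without a steady fall. For each gene, the 31-base words in the coding part of its last exon were looked up on both strands of the assembled chromosomes. Where under 5% of the words occurred again, 23 of 108 clustered genes were marked (21.3%) and 36 had no peak. From 5 to 25%, 7 of 39 were marked (17.9%) and 3 had no peak. At 25% or more, none of 55 was marked and 31 had no peak, while 3 had a marked last exon, Zfp935, Zfp825 and Zfp944. Median body coverage was 0 in replicate 1 and 9.49% in replicate 2 under 5%. It was 9.71% and 22.0% from 5 to 25%, and 0 in both replicates at 25% or more. Last exons were marked in 24 of 108 genes under 5% and in 13 of 39 from 5 to 25%. Among lone genes at 25% or more, 1 of 26 was marked and 19 had no peak. The background over all autosomal coding genes was 8.03% marked, 5.93% with a marked last exon and 59.8% without a peak. Every clustered gene of chromosome 4 had between 40.5% and 100% repeated words, except Zfp933 with 18.2%. The clustered genes of chromosome 2 without a peak had at least 55.1%, except Zfp334 with 0.113% and Zfp663 with 0. Zfp968 and Zfp965, whose fingers are printed above, had 100%. Zfp65, named after its values were seen, had more than 25% repeated words and its whole array under peaks in both replicates. Read length and the authors' treatment of reads that match several places are not known from the sources used, and the part of repeated sequence in these undetected genes was not tested. In the 147 clustered genes under 25%, 30 were marked (20.4%), against 16 of 118 lone genes (13.6%). That is a difference of 6.85 points, a setting chosen after the data were seen.

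The replicates gave different breadths and similar places. A peak was found in the body of 102 clustered genes in replicate 1 (background 30.5%) and 132 in replicate 2 (background 39.9%). It was found in both in 100, in replicate 1 alone in 2 and in replicate 2 alone in 32. Among the 71 clustered genes at 20% or more in replicate 2, replicate 1 coverage was a median of 47.4% of the replicate 2 value, against 36.3% over 58 lone genes and 35.1% over all 5102 coding genes of that kind. Coverage was higher in replicate 1 in 5 clustered genes, with a background of 0.765%. The widest gaps were at Zfp954, with 10.6% in replicate 1 and 66.8% in replicate 2, Zfp553, with 0 and 43.2%, and Zfp637, with 10.8% and 47.9%. In the opposite direction Zfp963, picked after its values were seen, had 12.4% in replicate 1 and 4.68% in replicate 2. The coding part of its last exon was covered 93.0% in replicate 1 and not at all in replicate 2. The strongest peak of a clustered gene had its summit in the last exon in 69 of 102 genes in replicate 1 (67.6%) and in 85 of 132 in replicate 2 (64.4%), against 29 of 80 (36.2%) and 47 of 96 (49.0%) in lone genes. The last exon also made up more of the body bases in clustered genes, 15.1% against 6.06% in lone genes. Summits were not placed for all coding genes, so no background share can be given.

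Genes from a list of KRAB corepressors and heterochromatin factors, called partners here, were by median covered over more of their bodies than the clustered genes. Of 24 listed partners 22 were autosomal, and 5 of these were marked (22.7%, background 8.03%), with 17 at 20% or more in replicate 2 (background 24.6%). Median body coverage over the 22 was 10.5% in replicate 1 and 31.9% in replicate 2. The 4 highest were Chd4, a NuRD remodeller, with 44.2% and 75.03%, Morc3, a heterochromatin ATPase, with 49.2% and 68.1%, the H3K9 methyltransferase gene Ehmt2 with 26.4% and 74.3%, and the DNA methyltransferase gene Dnmt1 with 34.5% and 60.4%. Setdb1 had 23.7% and 62.2%, and Trim28, the corepressor itself, had 8.40% and 18.04%, both given for their place in the pathway. The 3 lowest were Uhrf1, which guides Dnmt1 and had no peak, the HP1 gene Cbx5 with 0 and 4.82%, and Pphln1, of the HUSH complex, with 2.83% and 9.32%. Partners had a median last exon coverage of 0 in replicate 1 and 48.1% in replicate 2, and 2 of 22 had a marked last exon, where the background was 5.93%.

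Other C2H2 families and other genes between the Zfp genes were measured the same way, and over all coding genes 8.03% of bodies and 5.93% of last exons were marked and 59.8% had no peak. Of 21 Zscan and Zkscan genes, whose proteins carry a SCAN domain, 3 bodies and 5 last exons were marked, with median body coverage of 7.79% in replicate 1 and 28.6% in replicate 2. Of 34 Zbtb genes, which pair fingers with a BTB domain, 1 body and 1 last exon were marked, with medians of 0.108% and 9.05%. Inside the spans of the clusters lay 57 coding genes without the name pattern. They still include zinc finger genes by name, such as Zfp780b, which was marked. Zscan22 and Zkscan7 are among them and are also counted with the Zscan and Zkscan genes. Of the 57 genes, 5 were marked (8.77%) and 33 had no peak, with a median of 0 in both replicates. Their share marked was thus near that of all coding genes. The clustered genes themselves had 14.7% marked and 34.3% without a peak.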

How the data were processed

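H3K36me3 peak lists of 2 biological replicates were used, with the authors' pooled and replicated lists as alternatives. Per the file headers and descriptions deposited with them, each replicate's list holds peaks kept in pseudoreplicates (random splits of its reads), on mm10. For the aligner, the caller and the handling of reads that match several places, nothing is given in the sources used. The authors' columns are a display score (not used), an enrichment ratio over the background of the authors' caller, and the authors' −log10 p and −log10 q, which served to describe, rank or filter peaks. The lists hold no reads, so depth is unknown and no counting interval can be given.

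Genes came from GENCODE M21 (GRCm38, the assembly of mm10), taking the longest of records that share a symbol, and body and last exon coverage were computed in each replicate with Python 3.11.15, numpy 2.4.6 and pandas 2.3.3. The coverage code was tested on simulated data. No RefSeq protein table was used, so fingers were counted in translated GENCODE coding sequence, as C, 2 to 4 residues, C, 12 residues, H, 3 to 5 residues, H. With 1 group of 2 replicates no test across samples was possible, and counts and medians stand beside those of all autosomal coding genes.

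The members and gene lists were chosen with earlier results of these data known. The genes named were the 8 clustered members with the highest mean body coverage, the highest and lowest of each cluster of 4 or more, the 5 highest by last exon coverage and by enrichment-weighted density, the 3 with the widest gap between replicates, the 4 highest and 3 lowest lone genes and partners, and the pairs on either side of 100 kb. Chosen after their values were seen were Zfp12, Zfp24, Zfp27, Zfp35, Zfp36, Zfp52, Zfp54, Zfp58, Zfp65, Zfp82, Zfp260, Zfp334, Zfp426, Zfp459, Zfp566, Zfp568, Zfp623, Zfp663, Zfp748, Zfp780b, Zfp790, Zfp809, Zfp820, Zfp825, Zfp935, Zfp942, Zfp944, Zfp947, Zfp948, Zfp963, Zfp965, Zfp968, Zfp995, Zscan22, Zkscan7, Setdb1 and Trim28.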

Additional observations from a re-analysis of the deposited data

How the results depend on the processing

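Read depth is unknown, and replicate 1 had fewer and narrower peaks, which limits every count that asks for both replicates. The count of 30 marked clustered genes became 19 with peaks at a −log10 q of at least 5, 78 on the pooled list, 77 on the replicated list, 57 with a 10% limit and 4 with a 50% limit, and ran from 30 to 71 when 1 replicate was left out. The 40 marked last exons became 24 at that q, 75 on the pooled and 76 on the replicated list, 74 with a 20% limit, 14 with an 80% limit and 61 in the coding part alone, and ran from 41 to 70 without 1 replicate. The 3.02 points by which clustered exceeded lone genes in share marked reversed to -4.62 on the pooled list, to -0.630 with a 10% limit and to -2.86 without replicate 1, and were 3.02 without replicate 2. The 1.74 points between their median last exon coverage reversed to -1.12 with an enrichment of at least 3, to -5.51 with neighbours within 200 kb and to -3.42 with the last exons of all transcripts joined. It moved to 5.37 at that q, 1.96 on the pooled and 10.2 on the replicated list, 2.95 within 50 kb, 2.10 without overlapping members, 2.24 at 5 kb or longer and 5.64 in the coding part, and ran from 0 to 0.136 without 1 replicate. The median of 1.92% outside the last exon became 5.03% on the pooled and 4.16% on the replicated list. Restricting to genes with under 25% repeated words, chosen after seeing the data, moved that median to 4.15%, the last exon difference to 3.53 points and the 70 genes without a peak to 39 of 147. Of the 55 genes at 25% or more, 31 had no peak. The median last exon coverage of 15.4% was 5.37% at that q, 30.99% in the coding part and 0 without replicate 2. That of the body ran from 0.368% to 11.1% about its 5.22%. These moves were within 1 SD between replicates, 17.1 points for the last exon and 6.03 for the body, which is larger than each median. That SD was computed from the same values as the alternatives that leave out 1 replicate, so it shows no stability of these medians. The cause of these moves was not tested. Of the alternatives, 69 values stayed within 1.5 times a count or 1 SD between replicates of a median or difference, 27 moved beyond that and 6 reversed. With the SD taken from 2 replicates, a median or difference that stayed within it is not shown to be stable. No paired analysis was possible because there is only 1 group.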
